A study of Danio rerio with 2 samples.

Results

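The her6+ cells are a cell type in the deposited annotation of dissociated pituitaries from adult female zebrafish. They were taken by that name in both genotypes, which gave 101 of 6988 cells, 64 of 4794 in the *gnrh3*-/- library and 37 of 2194 in the WT library. The *gnrh3*-/- females lack gonadotropin-releasing hormone 3, the WT females were their *gnrh3*+/+ siblings, and all were 3 months old. For each genotype 5 pituitaries were pooled and counted as 1 droplet library, so genotype and library cannot be told apart, animals within a pool are not separated, and no test between genotypes or across cells was run. Values are unique molecular identifiers (UMIs), each standing for 1 captured RNA molecule.

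The pituitary joins tissue of 2 origins. The hormone cells of the anterior lobe come from a placode of the surface ectoderm, while the neural lobe grows from the floor of the hypothalamus and holds glial cells called pituicytes around nerve endings and fenestrated capillaries. The gene *her6* encodes a repressor of the Hairy/Enhancer of split family, known as a Notch target that keeps neural progenitors from differentiating, and *sox2* encodes a transcription factor of neural and pituitary progenitors. The gene *plvapa* encodes a protein of fenestrated endothelium.

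The median her6+ cell held 3520 UMIs (lowest 1212, highest 24718) and 1202 genes in the *gnrh3*-/- library. In the WT library it held 4774 UMIs (lowest 1220, highest 18697) and 1516 genes. The median of all other cells was 5389.5 UMIs in the *gnrh3*-/- library and 6994 UMIs in the WT library. The her6+ cells made up 1.34% of *gnrh3*-/- cells (exact 95% interval 1.03% to 1.70%) and 1.69% of WT cells (1.19% to 2.32%), and these intervals overlapped. The libraries shared 1 cell barcode, and 0 of the shared barcodes belonged to a her6+ cell. Pituitary hormone genes take up much of the RNA of the other cells, so a level is given here per 10000 non-hormone UMIs: the UMIs of a gene in all cells of 1 type and 1 library were added up and divided by the sum over all genes but the hormone genes. Levels are compared for 1 gene between groups and not between genes. Intervals are exact and cover counting error only.

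The gene that names the cells was high in them but not highest in both libraries. *her6* had 327 UMIs in the *gnrh3*-/- her6+ cells, a level of 10.4 (9.28 to 11.6), against 0.490 in all other cells of that library. In the WT her6+ cells it had 117 UMIs, a level of 5.27 (4.36 to 6.32), against 1.06 in the other cells. In the WT library another of the 14 types was higher, so *her6* ranked 2 there and 1 in the *gnrh3*-/- library. Among the 12 other types reported here the highest *her6* level was 0.448, from 3 UMIs in the undetermined type of the *gnrh3*-/- library. At least 1 UMI of *her6* was in 43 of 64 *gnrh3*-/- and 27 of 37 WT her6+ cells.

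Other markers set these cells apart more sharply. *cfd* encodes complement factor D, a serine protease of the alternative complement pathway. It had 9471 UMIs in the *gnrh3*-/- her6+ cells, a level of 300.4 (294 to 306), against 67 UMIs in the other 4730 cells. In the WT her6+ cells it had 6529 UMIs, a level of 294 (287 to 302), against 54 UMIs in the other 2157 cells. All 64 *gnrh3*-/- and 36 of 37 WT her6+ cells had a *cfd* UMI, against 1.25% and 1.11% of the other cells of those libraries.

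*cyp26b1* encodes an enzyme that breaks down retinoic acid. It had 7159 UMIs in *gnrh3*-/- her6+ cells (level 227, 222 to 232) and 5487 in WT her6+ cells (level 247, 241 to 254). The next of the reported types, corticotropes, had levels of 0.596 in the *gnrh3*-/- library and 1.17 in the WT library. A *cyp26b1* UMI was present in 62 of 64 *gnrh3*-/- and 37 of 37 WT her6+ cells. *cfd* and *cyp26b1* were found together in 98 of the 101 cells, and 37 cells had UMIs of all 5 markers.

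*tac3b* encodes a tachykinin precursor of the neurokinin B type. It had 1123 UMIs in *gnrh3*-/- her6+ cells (level 35.6, 33.6 to 37.8) and 931 in WT her6+ cells (level 42.0, 39.3 to 44.8), against 9 and 6 UMIs in all other cells of the 2 libraries. *sox2* was less particular. Its level was 2.60 in *gnrh3*-/- her6+ cells, with 1.80 in corticotropes, and 2.84 in WT her6+ cells, with 2.53 in melanotropes. The intervals of the her6+ level, 2.07 to 3.23 and 2.18 to 3.63, reached below the WT melanotropes but not below the *gnrh3*-/- corticotropes.

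**Figure D1:**
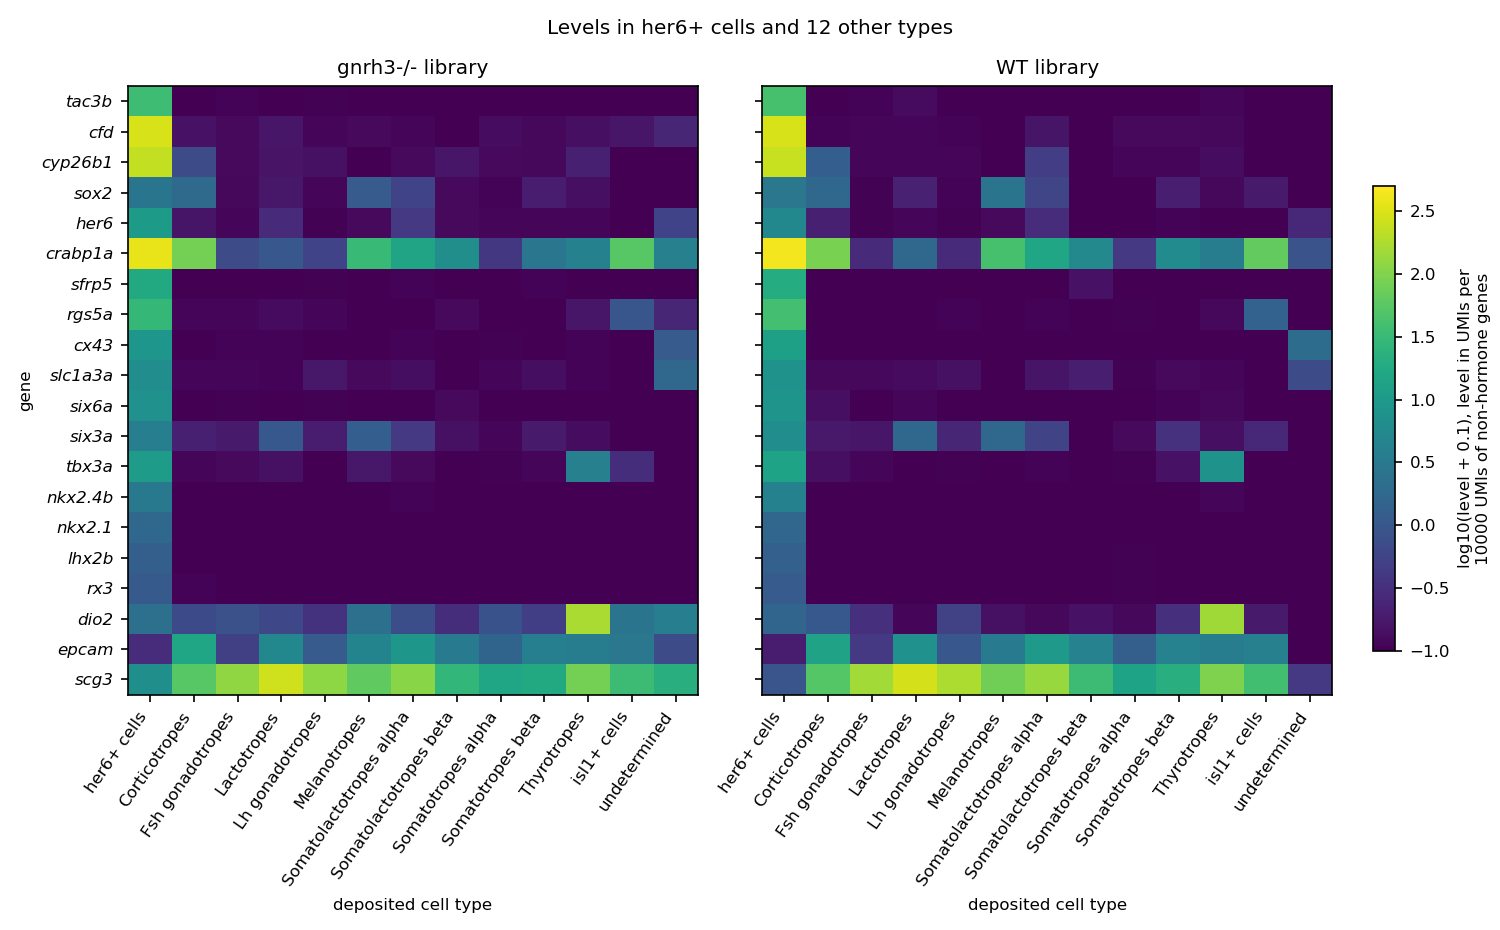
Levels of 20 genes (rows) in her6+ cells and 12 other deposited types (columns), *gnrh3*-/- library on the left and WT library on the right, as log10 of the level plus 0.1. The first column stands out for *cfd*, *cyp26b1* and *tac3b* in both libraries, while *dio2* is brightest in thyrotropes and *epcam* is dark in her6+ cells.

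To compare detection at 1 depth, each cell was thinned at random to 2000 UMIs, which left out 14 of 64 *gnrh3*-/- and 4 of 37 WT her6+ cells and 333 and 44 other cells. A *her6* UMI was then found in 60.0% of *gnrh3*-/- (45.2% to 73.6%) and 57.6% of WT (39.2% to 74.5%) her6+ cells, against 3.07% and 6.91% of the other cells. For *sox2* the shares were 38.0% and 33.3%, against 3.57% and 6.96% of the other cells. For *tac3b* they were 72.0% (57.5% to 83.8%) and 69.7% (51.3% to 84.4%), against 0.0682% of the other *gnrh3*-/- cells and 0 of 2113 other WT cells. The *gnrh3*-/- and WT intervals overlapped for each of these 3 genes.

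Single cells without a UMI were more common for *tac3b* than for *cfd* or *cyp26b1*, which had more UMIs. The spread of these genes was not compared. The *cfd* level of a cell had a median of 203.5 (lowest 17.3, highest 1100) in the *gnrh3*-/- library and of 177 (0 to 717) in the WT library. *cyp26b1* had a median of 191.5 (0 to 753) and 250.2 (2.58 to 971) in the *gnrh3*-/- and WT cells. The *tac3b* level had a median of 10.1 (0 to 188.5) in *gnrh3*-/- cells and 6.42 (0 to 263) in WT cells, and 21 *gnrh3*-/- and 8 WT cells had no *tac3b* UMI.

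Cells without *tac3b* were shallower, with a median of 1936 against 4810 UMIs in the *gnrh3*-/- library and 4139.5 against 4774 in the WT library, but 8 of the 21 and 6 of the 8 held more than 3000 UMIs. *apof*, which encodes apolipoprotein F, was singled out after its values were seen. Its level was 23.2 in *gnrh3*-/- her6+ cells with *tac3b* and 5.89 in those without. In WT her6+ cells the *apof* levels were 27.8 with and 1.11 without *tac3b*. *cyp26b1* had levels of 221 with and 255 without *tac3b* in the *gnrh3*-/- library and of 262 and 173 in the WT library, so it did not follow *tac3b* in both.

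**Figure D2:**
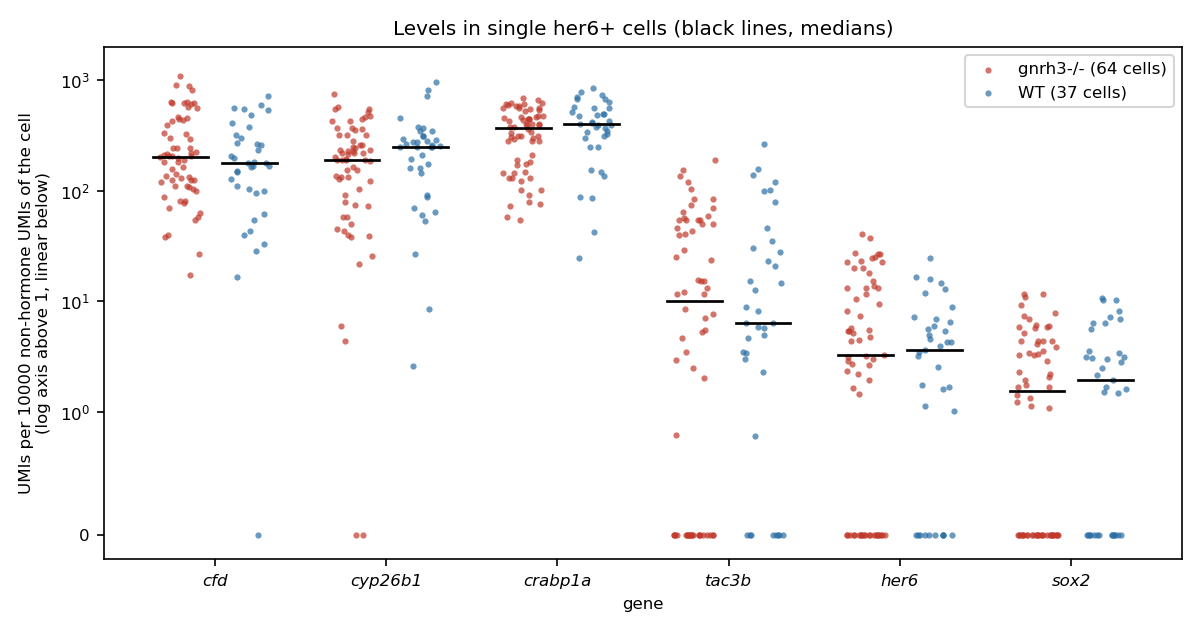
Level of 6 genes (x axis) in each of the 101 her6+ cells (points), *gnrh3*-/- cells left of WT cells, in UMIs per 10000 non-hormone UMIs of the cell, on an axis that is logarithmic above 1, with medians as black lines. *cfd*, *cyp26b1* and *crabp1a* are high in nearly all cells, while 29 cells lie at 0 for *tac3b*.

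Across all genes, 2750 had at least 20 UMIs in the her6+ cells of both libraries together and at least 4 in each. Of these, 463 (16.8%) were at least 4-fold higher in her6+ cells than in all other cells in both libraries, and 355 of the 463 had their highest level of the 14 types there in both. The median log2 ratio over the 2750 genes was 0.29 in each library. At least 16-fold was reached by 193 genes and at least 100-fold by 66. In the other direction, 2667 genes would have had 20 UMIs at the level of the other cells, and 342 of them (12.8%) were at least 4-fold lower in her6+ cells in both libraries. With hormone genes in the total, 585 genes were higher and 227 lower. The annotation was built from these same counts, so the ratios describe the cells and are no test of them.

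The 30 genes with the highest ratios all had at least 260.8-fold higher levels, each was highest in her6+ cells among the 14 types in both libraries, and 14 had fewer than 10 UMIs in all other cells together. Besides *tac3b*, *cfd* and *cyp26b1* they held genes for secreted proteins. *sfrp5*, a secreted Wnt antagonist, had levels of 17.3 in *gnrh3*-/- and 19.4 in WT her6+ cells, against 10 and 11 UMIs in the other cells. *apof* had levels of 19.9 and 23.4. *fgfbp3*, a carrier of fibroblast growth factors, had 185 and 184 UMIs, against 1 and 3 in the other cells. *stc1*, a stanniocalcin, and *scube2*, which helps release hedgehog ligands, had levels of 1.05 to 2.06.

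Further genes of the 30 had varied roles. *cldn19*, a claudin of tight junctions, had 138 UMIs in *gnrh3*-/- and 81 in WT her6+ cells, against 3 and 1 in the others. *cx43*, a connexin of gap junctions, had levels of 8.69 and 12.7, with 1.05 and 1.91 in the undetermined type, the next of those reported. *rgs5a*, a regulator of G protein signaling, had levels of 29.0 and 38.7, with 0.887 and 1.34 in *isl1*+ cells. *nlgn4xa*, a neuroligin of synaptic contacts, had levels of 14.1 and 15.3, and *ehd2b*, which acts at caveolae, 10.2 and 10.7. *atp1b4*, *camkvb*, *cd59*, *mxra8a*, *rerglb* and *FAM107A.1* were also among the 30, as were the loci listed as *si:ch211-160j14.3*, *si:ch211-251b21.1*, *si:ch211-66e2.5* and *si:ch73-329n5.1*. The first of these loci had 1291 UMIs in *gnrh3*-/- and 958 in WT her6+ cells.

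The remaining 7 of the 30 were transcription factor genes, *tbx2a*, *nkx2.4a*, *nkx2.4b*, *nkx2.1*, *six6a*, *six6b* and *lhx2b*. Factors of the Nkx2, Rx, Lhx2, Six3/Six6 and Tbx2/Tbx3 families pattern the ventral forebrain and hypothalamus of vertebrate embryos. *six6a* had 230 UMIs in *gnrh3*-/- and 182 in WT her6+ cells, levels of 7.29 (6.38 to 8.30) and 8.2 (7.06 to 9.49), against 9 and 13 UMIs in all other cells. *nkx2.1* had 52 and 35 UMIs, against 0 and 3 in the other cells. With 3 counts set for the zero its *gnrh3*-/- ratio was 1233-fold, and the exact interval reached down to 967-fold. *nkx2.4b* had 96 and 92 UMIs against 3 and 3, and *nkx2.4a* 41 and 58 against 0 and 1. *rx3* had 32 and 23 UMIs against 2 and 6, and *lhx2b* 39 and 28 against 0 and 2.

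These factors were spread over the cells. Of 13 such genes (*nkx2.1*, *nkx2.4a*, *nkx2.4b*, *rx3*, *lhx2b*, *six3a*, *six3b*, *six6a*, *six6b*, *tbx2a*, *tbx2b*, *tbx3a* and *otx2b*, a set put together after their values were seen), the median *gnrh3*-/- her6+ cell had a UMI of 7 and the median WT cell of 8. No her6+ cell had none, and 58 of 64 *gnrh3*-/- and 36 of 37 WT cells had at least 3. Not all were particular to these cells. *six3b* had a level of 8.38 in WT her6+ cells and 9.90 in WT somatolactotropes alpha. *tbx3a* had levels of 10.97 in *gnrh3*-/- and 14.1 in WT her6+ cells, with 3.94 and 7.52 in thyrotropes.

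**Figure D3:**
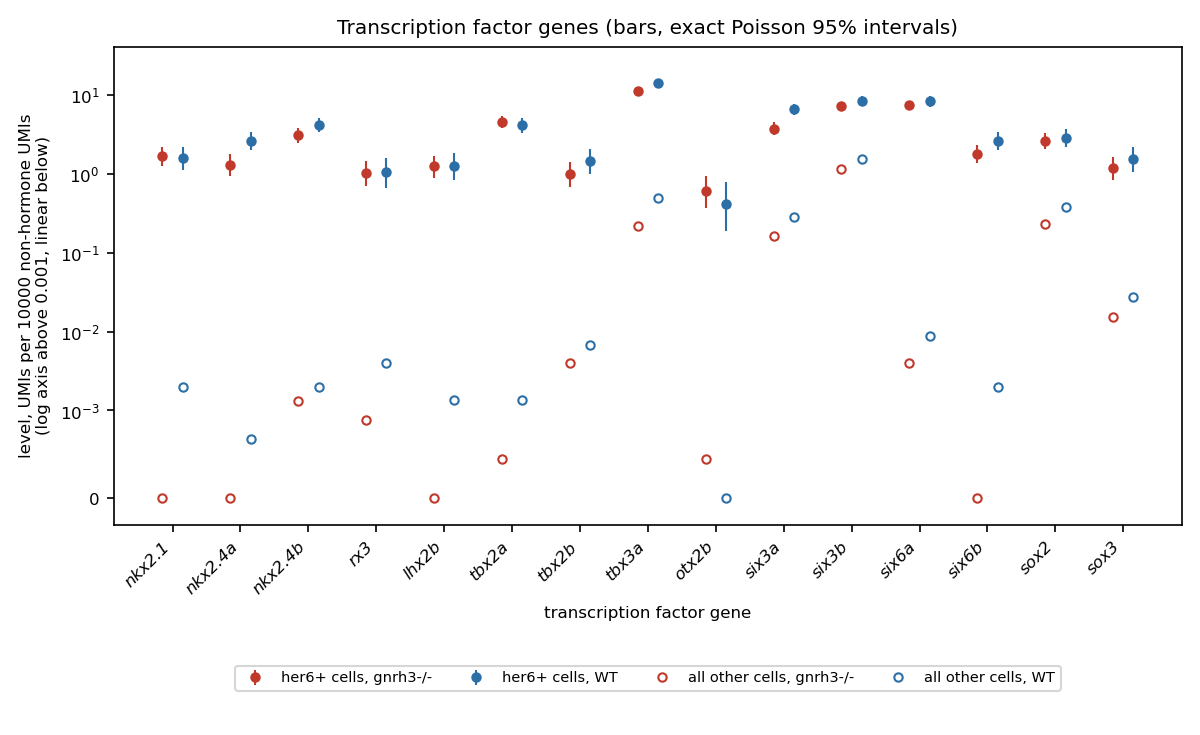
Levels of 15 transcription factor genes (x axis) in her6+ cells (filled points, bars for exact Poisson 95% intervals) and in all other cells (open points), *gnrh3*-/- left of WT for each gene, on an axis that is logarithmic above 0.001. The filled points lie above the open ones for every gene in both libraries, least for *six3b*, at levels of 7.10 and 8.38 against 1.13 and 1.55.

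Lists of genes known for a cell class were counted next, over all members in the gene table. The lists were chosen with earlier results of these data known. Of all 25432 genes in that table, 12699 had a UMI in her6+ cells. A gene needs UMIs in her6+ cells to pass the minimum, so the counts of members that passed lean toward genes that are high there. Of 24 genes of the pituicyte list, 16 had a UMI in her6+ cells, 11 passed and 10 were at least 4-fold higher in both libraries, against 16.8% of all genes that passed. They were *cyp26b1*, itself a marker of these cells, 7 of the factors above, *vegfaa*, which encodes a vascular endothelial growth factor, and *esm1*. The levels of *vegfaa* were 1.08 in *gnrh3*-/- and 1.31 in WT her6+ cells. In the other direction, 2 of the 2 members expected at 20 UMIs, *dio2* and *fgf8a*, were at least 4-fold lower, next to 12.8% of all genes. *dio2*, the deiodinase that activates thyroid hormone, was 4.27-fold lower in *gnrh3*-/- and 6.22-fold lower in WT her6+ cells than in the others. Its level was 170 (*gnrh3*-/-) and 150.3 (WT) in thyrotropes, which held most of the *dio2* UMIs of the other cells. The lower ratio is thus against a mean set largely by thyrotropes and does not place her6+ cells below each other type. *rx1*, *rx2*, *lhx2a*, *fgf10a*, *m17*, *vcana*, *vcanb* and *slco1c1* had no UMI. Without *cyp26b1*, the summed level of the list was 24.8 in *gnrh3*-/- and 31.2 in WT her6+ cells, against 10.5 and 11.2 in the other cells.

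Of 28 genes of the radial glia and astroglia list, 23 had a UMI and 8 of the 14 that passed were at least 4-fold higher in both libraries, next to 16.8% of all genes. *slc1a3a*, a glutamate transporter of glia, had levels of 6.31 in *gnrh3*-/- and 7.80 in WT her6+ cells, 80.9-fold and 100.3-fold above the other cells. *fabp7a*, a fatty acid binding protein of radial glia, had levels of 6.98 and 15.4. *si:ch211-66e2.5* and *atp1b4* led the list. *vim*, the intermediate filament vimentin, had levels of 4.92 and 9.29. The summed level of the list was 70.7 in *gnrh3*-/- and 75.8 in WT her6+ cells, against 16.5 and 16.9 in the other cells. *mdka*, a midkine growth factor, made 29.4 and 20.2 of it, and stood at 23.4 and 23.6 in FSH gonadotropes. *gfap*, the filament protein of astroglia, had 2 UMIs in *gnrh3*-/- and 1 in WT her6+ cells, levels of 0.0634 and 0.0451 against 0.0486 and 0.0664 in the other cells. *ptn*, pleiotrophin, was 4.18-fold lower in *gnrh3*-/- and 1.87-fold lower in WT her6+ cells than in the others. *aqp4*, the water channel of astrocyte end feet, had no UMI, and neither had *slc1a2a*, *atp1a2a*, *aldoca* and *sox9b*.

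Of 29 genes of the mural cell and fibroblast list, 16 had a UMI and 9 passed. Of these 6 (*rgs5a*, *pdgfrb*, *myl9a*, *dcn*, *myl9b* and *pdgfra*) were at least 4-fold higher in both libraries, next to 16.8% of all genes. *pdgfrb*, a receptor for platelet-derived growth factor of pericytes and fibroblasts, had 61 UMIs in *gnrh3*-/- and 58 in WT her6+ cells, against 16 and 31 in the others. *acta2*, *tagln*, *myh11a* and *cspg4*, genes of smooth muscle and pericytes, had no UMI in the 101 cells, and *lum*, *postna* and *postnb* also had none. The summed level was 43.42 in *gnrh3*-/- and 55.5 in WT her6+ cells, against 2.96 and 3.59 in the others, and *rgs5a* alone made 29.0 and 38.7 of it. *pdgfra* was not highest in her6+ cells in the WT library, at 0.631 there and 1.51 in WT thyrotropes.

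Most markers of endothelium had no UMI, while 12699 of all 25432 genes had one. Of the 37 genes of that list, 26 had no UMI in her6+ cells, 11 had at least 1 and none passed the minimum. The genes at 0 included *plvapa*, *plvapb*, *kdrl*, *kdr*, *pecam1*, *tie1*, *tek*, *erg*, *egfl7*, *clec14a*, *flt1*, *flt4*, *sox17* and *sox18*. But 2 of the 37, *sox17* included, had no UMI in any cell of either library. *kdr*, *erg*, *egfl7*, *clec14a* and *sox18* had at most 8 UMIs in the other cells of a library. The zeros of these genes do not set her6+ cells apart. For *plvapa*, 0 of 64 *gnrh3*-/- and 0 of 37 WT her6+ cells had a UMI. With 3 cells set for the zero, in place of an exact limit, the share of cells with a UMI would be 4.69% and 8.11%. This share is of detection and not of expression. The other cells held 120 and 144 UMIs, which lay in 12 of 4730 *gnrh3*-/- and 10 of 2157 WT cells. The level that 3 counts allow, 0.0951 in *gnrh3*-/- and 0.135 in WT her6+ cells, is above the level of the other cells, 0.0535 and 0.0966. At this depth *plvapa* alone could thus not show a difference from the mean of all other cells. The her6+ cells were not compared with the few cells that held its UMIs. *vwf*, which encodes von Willebrand factor, went the other way. It had 8 UMIs in *gnrh3*-/- and 2 in WT her6+ cells, against 0 and 0 in all other cells, too few to pass. All 37 genes together had 20 UMIs in *gnrh3*-/- and 17 in WT her6+ cells, summed levels of 0.634 and 0.766, against 0.50 and 0.746 in the other cells. Those UMIs lay in 16 of 64 *gnrh3*-/- and 11 of 37 WT cells, with at most 3 and 4 in a cell.

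**Figure D4:**
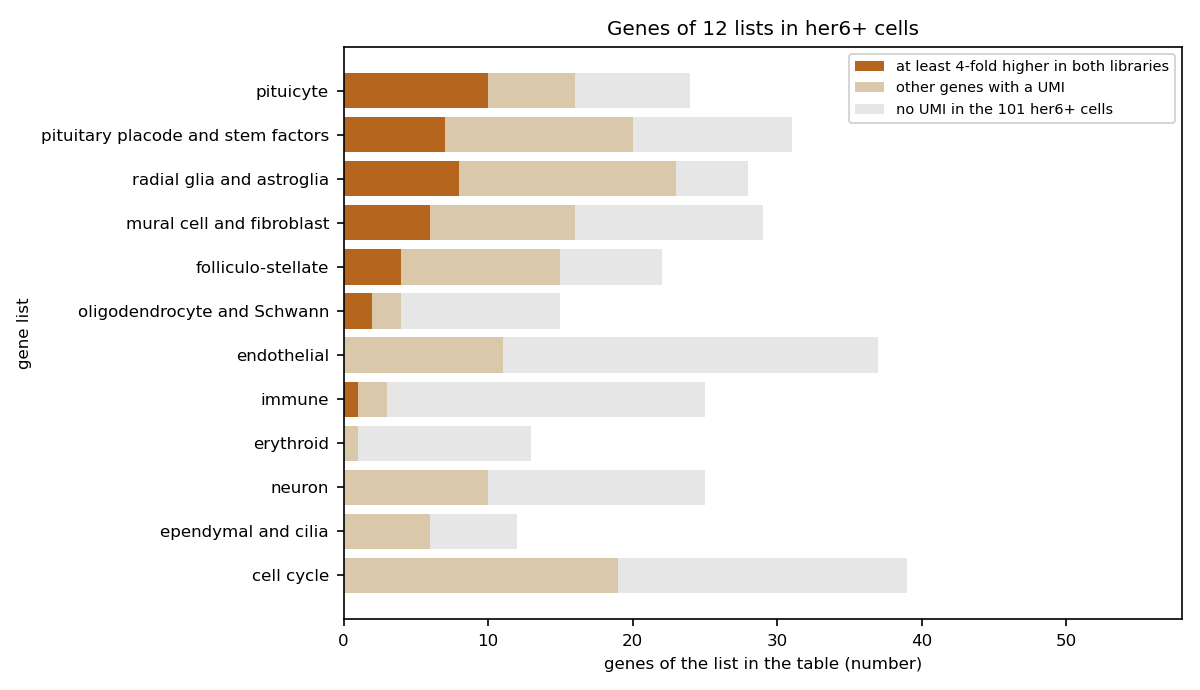
Number of genes (x axis) of 12 gene lists (rows) that were at least 4-fold higher in her6+ cells than in all other cells of both libraries (brown), that had a UMI but were not (beige), and that had no UMI in the 101 her6+ cells (grey). The brown part holds 10 of 24 genes of the pituicyte list and 0 of 37 of the endothelial list, where 26 are grey.

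Many markers of other classes that the dissected tissue could hold were at 0, while 12699 of all 25432 genes had a UMI. The counts for ependymal cells and cilia and for the cell cycle lay near that share. For the immune list 22 of 25 genes had no UMI, *ptprc*, *fcer1gl* and *mpeg1.1* included. The 1 gene that passed, *apoeb*, an apolipoprotein E gene, was at least 4-fold higher (6.62-fold in *gnrh3*-/- and 4.01-fold in WT her6+ cells), next to 16.8% of all genes. It was not particular to her6+ cells, at levels of 0.729 and 0.947 there and of 7.32 and 3.82 in the undetermined type. For red blood cells 12 of 13 had none. For oligodendrocytes and Schwann cells 11 of 15 had none, among them *mbpa*, *mpz*, *plp1a*, *sox10* and *olig2*. But 7 of the 15, *plp1a* and *sox10* included, had no UMI in any cell of either library, so those zeros do not set her6+ cells apart. The 2 genes that passed, *cldn19* and *cd59*, were at least 4-fold higher, next to 16.8% of all genes. Of the 3 expected at 20 UMIs 1 was at least 4-fold lower, next to 12.8% of all genes. It was *plp1b*, 21.5-fold lower in *gnrh3*-/- and, with 3 counts set for the zero, 15.0-fold lower in WT her6+ cells. Of 25 neuron genes 15 had none, *oxt*, *avp*, *gad1b*, *gad2* and *th* included, but 2 of the 25, *th* among them, had none in any cell. Of the 8 expected at 20 UMIs 5 were at least 4-fold lower, next to 12.8% of all genes. Of 12 genes of ependymal cells and cilia 6 had none, *foxj1a* among them, and 0 of the 2 that passed were 4-fold higher. Of 39 cell cycle genes 20 had none, *mki67*, *top2a*, *cdk1* and *ccnb1* included, and 0 of the 4 that passed were 4-fold higher.

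Genes of the hormone lineages were low. *epcam*, an adhesion molecule of epithelia, had 6 UMIs in *gnrh3*-/- and 2 in WT her6+ cells, 22.8-fold and 62.5-fold lower than in the others, and *cdh1* had none. Of 31 genes of the pituitary placode and stem factor list, 8 passed and 7 were at least 4-fold higher in both libraries (*six6a*, *six6b*, *otx2b*, *sox3*, *six3a*, *six3b* and *sox2*), next to 16.8% of all genes. Of the 9 expected at 20 UMIs, 7 were at least 4-fold lower, next to 12.8%. The lower ones were *pou1f1*, the factor of the growth hormone, prolactin and thyrotropin lineages, *nr5a1b*, a gonadotrope factor, *pitx3*, *pax6a*, *eya1*, *six1b* and *neurod1*. *pou1f1* had 6 UMIs in *gnrh3*-/- and 0 in WT her6+ cells, against 3225 and 2279 in the others. Of 22 genes of the folliculo-stellate list, the stellate cells of the anterior lobe, 4 of the 7 that passed were at least 4-fold higher (*vim*, *s100a10b*, *cd9a* and *krt18a.1*) and 4 of the 9 expected at 20 UMIs lower (*cdh1*, *aldh1a3*, *cd9b* and *epcam*), next to 16.8% and 12.8% of all genes.

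The 10 genes with the lowest ratios were *smtlb*, *fshb*, *CGA*, *lhb*, *cga*, *tfa*, *insm1a*, *wu:fj16a03*, *grn1* and *rem1*, of which 5 are hormone genes. *insm1a*, a zinc finger factor of endocrine cells, had 1 UMI in each library's her6+ cells, against 6843 and 6609 in the others. Of 7 granin and prohormone enzyme genes expected at 20 UMIs, 6 were at least 4-fold lower, next to 12.8% of all genes. Among them were *chga*, *scg2b*, *scg5* and *scg3*.

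Of 42 genes of claudins, gap junctions and cadherins, 4 of the 9 that passed were at least 4-fold higher in both libraries (*cldn19*, *cldn7a*, *cdh11* and *cldn12*), next to 16.8% of all genes. Of the 10 expected at 20 UMIs 5 were lower (*cdh1*, *f11r.1*, *cldnb*, *cldnh* and *epcam*), next to 12.8%. This list and the folliculo-stellate list held *cx43* under other symbols that matched no gene of the table, so their counts leave it out. The median log2 ratio of the members that passed, beside 0.29 for all genes that passed in each library, was 9.85 in *gnrh3*-/- and 8.01 in WT her6+ cells for the pituicyte list. It was 2.52 and 2.1 for the radial glia and astroglia list, 4.21 and 2.69 for the mural cell and fibroblast list and 1.08 and 1.20 for the Notch pathway. These medians carry the same lean toward genes with UMIs in her6+ cells, and the lists were chosen with earlier results of these data known.

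The longest list held signaling genes. Of 103 genes of the FGF, WNT, BMP and hedgehog pathways, 57 had a UMI and 25 of the 30 that passed were at least 4-fold higher in both libraries, next to 16.8% of all genes. Of the 12 expected at 20 UMIs 3 were lower, next to 12.8%. Among receptors, *fgfr2* had levels of 3.68 in *gnrh3*-/- and 3.56 in WT her6+ cells, and *fzd2* of 0.793 and 0.811. Among targets and inhibitors, *spry4*, a feedback inhibitor of FGF signaling, had levels of 8.40 and 8.07, *id3*, a BMP target, 4.12 and 5.14, and *bambia*, a BMP pseudoreceptor, 2.54 and 2.39. *gli2a* and *gli3*, which carry the hedgehog signal to the nucleus, had levels of 2.0 and 1.78 in *gnrh3*-/- and 2.39 and 2.07 in WT her6+ cells, and *hhip*, which binds hedgehog ligands, 0.412 and 1.04. Of the ligand genes, *shha*, *shhb*, *ihha*, *bmp4* and *wnt5a* were among the 46 with no UMI, while *wnt11* was among the 30 that passed. The share of the list with a UMI lay near that of all genes, 12699 of 25432, and 4 members had none in any cell. The zeros thus do not show that ligand genes as a class are off. The 3 lower genes were *fgf8a*, *dkk3a* and *dkk3b*.

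Of the retinoic acid genes, *crabp1a* for binding and *cyp26b1* for breakdown were high. *aldh1a3* and *rdh10a* for synthesis were low against the mean of the other cells, *rdh10a* not against most types. Other members did not follow by class. *crabp1b* had 1 UMI in *gnrh3*-/- and 0 in WT her6+ cells. *rdh10b* was at 1.19-fold (*gnrh3*-/-) and 1.06-fold (WT) the level of the other cells, from 3 and 2 UMIs. *crabp1a*, which encodes a protein that binds retinoic acid in the cytoplasm, had 11769 UMIs in *gnrh3*-/- (level 373, 366 to 380) and 9716 in WT her6+ cells (level 438, 429 to 447), 52.7-fold and 44.6-fold above the others. Corticotropes were next, at levels of 85.0 and 91.2. With *cyp26b1* it was 1 of 2 genes at least 4-fold higher, of 34 listed and 3 that passed, next to 16.8% of all genes. *aldh1a3* and *rdh10a*, whose enzymes act in the synthesis of retinoic acid, were at least 4-fold lower. They had 1 and 4 UMIs in *gnrh3*-/- and 0 and 2 in WT her6+ cells. They were 2 of the 4 members expected at 20 UMIs, next to 12.8% of all genes. Corticotropes held 1011 of the 1444 *rdh10a* UMIs of the other *gnrh3*-/- cells and 995 of the 1320 of the other WT cells. For *rdh10a* the her6+ cells ranked 5 of the 14 types in the *gnrh3*-/- and 7 in the WT library, so its lower ratio does not place them below most types. *aldh1a2*, *cyp26a1* and *cyp26c1* had no UMI, and *cyp26c1* had none in any other cell either. At levels of 0.0977 (*gnrh3*-/-) and 0.0268 (WT) in the other cells, the zero of *aldh1a2* could not show a difference.

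Of 48 Notch pathway genes, 13 passed and 3 were at least 4-fold higher in both libraries, *her6*, *nrarpb* and *notch2*, next to 16.8% of all genes that passed. *her6* names the cells, and without it the share of the list lay near that of all genes. *notch3* had levels of 1.36 in *gnrh3*-/- and 2.25 in WT her6+ cells and *her4.1* of 0.159 and 0.947, neither 4-fold above the others. Of 39 complement genes 29 had no UMI, *c3a.1* and *cfb* included, and 9 had none in any cell. Of the 4 that passed, 3 were at least 4-fold higher, next to 16.8% of all genes. These were *cfd*, *cd59*, an inhibitor of complement lysis, and *clu*, clusterin. *cfp*, properdin of the alternative pathway, was 20.2-fold lower in *gnrh3*-/- and 56.8-fold lower in WT her6+ cells. It was the only 1 of 3 members expected at 20 UMIs that was lower, next to 12.8% of all genes. Of 9 tachykinin and receptor genes, 8 had no UMI in her6+ cells, all but *tac3b*, while 12699 of all 25432 genes had one. In no cell of either library was there a UMI of 2 of the 9. The others at 0 had levels of at most 0.0416 in the other cells, below what 3 counts allow in her6+ cells. These zeros can thus not show a difference. Of 42 collagen, laminin and integrin genes 7 passed, and 3, *sparc*, *col18a1a* and *col4a2*, were higher, next to 16.8% of all genes. Of 34 early response genes, 2 of the 27 that passed (*cebpd* and *zfp36l1a*) were higher, next to 16.8% of all genes, and 4 of the 29 expected at 20 UMIs were lower, next to 12.8%. Of 31 nuclear receptor genes 9 passed and 0 were 4-fold higher, next to 16.8% of all genes. Of the 8 expected at 20 UMIs 1 was lower, next to 12.8%. It was *esr1*, with 0 UMIs in *gnrh3*-/- and 1 in WT her6+ cells.

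The likeness of the her6+ cells to each other type was described by the correlation of log2(level + 0.1) across 21274 genes, which are not independent replicates. Among the 12 types reported, Pearson's r was highest with somatotropes beta (0.76 in the *gnrh3*-/- and 0.74 in the WT library), somatolactotropes alpha (0.76 and 0.74) and LH gonadotropes (0.76 and 0.73), and lowest with the undetermined type (0.64 and 0.57). The her6+ cells of the 2 libraries had an r of 0.94 with each other. Types share library and free RNA within a library, but their sums differ in the number of cells and UMIs. The undetermined type held 17 *gnrh3*-/- and 11 WT cells, and the part of sparse counts in its low r was not tested.

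Between genotypes, 2750 genes were compared within the her6+ cells, and 94 (3.42%) were at least 2-fold higher and 130 (4.73%) at least 2-fold lower in *gnrh3*-/- cells. The split depends on the scaling, with 191 higher and 187 lower as a mean of per-cell levels, 138 and 99 with TMM scaling, and 73 and 172 with hormone genes in the total. Among the 1134 genes with at least 50 UMIs over both libraries, 20 (1.76%) were higher and 20 lower by that measure, the median log2 ratio of *gnrh3*-/- over WT was -0.03, and the 5th and 95th percentiles were -0.81 and 0.70. Of the 5 markers, *her6* moved most. Its log2 ratio was 0.98 (0.67 to 1.29), above the 95th percentile, with 21.1% of the *gnrh3*-/- UMIs in 1 cell, and in the other cells of the libraries it was -1.12. The median her6+ cell did not follow, with a *her6* level of 3.23 in *gnrh3*-/- and 3.65 in WT cells. The ratio was 0.03 for *cfd* (-0.02 to 0.08), -0.12 for *cyp26b1* (-0.17 to -0.07), -0.24 for *tac3b* (-0.36 to -0.11) and -0.13 for *sox2* (-0.62 to 0.37).

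Of the 10 genes with the highest log2 ratio, 6 were hormone genes and 1 was *scg3*, a granin of hormone granules. *gh1* had 17315 UMIs in *gnrh3*-/- and 82 in WT her6+ cells, and *prl* had 1736 and 13. Hormone genes took 5.86% of the UMIs of *gnrh3*-/- her6+ cells and 0.0896% of WT her6+ cells, against 31.8% and 31.5% in the other cells. In 5 *gnrh3*-/- cells they took more than 5% (5.56%, 9.13%, 26.7%, 55.5% and 61.6%), and 2 of these cells held 9663 and 7346 *gh1* UMIs. Scrublet, a doublet caller, called 1 of the 5 as a doublet, and all 5 had UMIs of *cfd* and *cyp26b1*. Without these 5 cells, chosen after their values were seen, hormone genes took 0.261% of the *gnrh3*-/- UMIs. The log2 ratio then was 1.35 for *gh1* (0.99 to 1.72), 2.25 for *prl* (1.40 to 3.22) and 1.02 for *scg3* (0.24 to 1.86).

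The other hormone genes among the 10 were *lhb* (log2 2.19), *tshba* (2.17), *cga* (1.92) and *pomca* (1.70), and without the 5 cells 1.81, 1.66, 1.43 and 1.51. Droplets without a cell, taken as barcodes of 10 to 100 UMIs, held 49.7 UMIs each with 20.2% from hormone genes in the *gnrh3*-/- library, and 27.5 UMIs with 14.7% in the WT library. This free RNA was taken as 1.64% of the UMIs in the *gnrh3*-/- and 0.634% in the WT library. With it subtracted, the ratio of *tshba* turned to -0.052, while *lhb* was at 1.71, *cga* at 1.46 and *pomca* at 3.18. The UMIs taken off were about as many as these genes had in the *gnrh3*-/- or the WT her6+ cells, and an empty sum is set to 3 counts. These ratios thus rest on that floor and cannot show whether a genotype difference remains. *ptgdsb.1* (1.89) had 71.4% of its *gnrh3*-/- UMIs in 1 cell. *selenot1b* had 40 UMIs in *gnrh3*-/- and 10 in WT cells, and *mhc1uba*, a class I histocompatibility gene, 95 and 24, but *mhc1uba* was also higher in the other *gnrh3*-/- cells, by a log2 ratio of 1.03.

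The 10 genes with the lowest log2 ratio in *gnrh3*-/- her6+ cells were *phlda2* (-1.84), *tcima* (-1.57), *stmn1b* (-1.54), *tfe3a* (-1.51), *ier5* (-1.38), *pim2* (-1.35), *socs3b* (-1.33), *pde4ba* (-1.23), *sh3bgrl* (-1.21) and *eif4a1a* (-1.21). *socs3b*, an inhibitor of cytokine signaling, had 31 UMIs in *gnrh3*-/- and 55 in WT cells, and *ier5*, an early response gene, 30 and 55. *phlda2* had 51.7% of its 29 *gnrh3*-/- UMIs in 1 cell, and *stmn1b* 70.2% of its 47 WT UMIs in 1 cell. In the other cells of the libraries the log2 ratio of these genes lay between -0.78 for *sh3bgrl* and 0.20 for *phlda2*. Of the 27 early response genes that passed, 3 were at least 2-fold lower in *gnrh3*-/- cells, next to 4.73% of all genes, and 0 higher, next to 3.42%.

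Of the hormone genes, 8 of 8 that passed were at least 2-fold higher in *gnrh3*-/- cells. *tshba* was not so with free RNA subtracted, where its ratio rests on the floor of 3 counts. *CGA*, at a log2 ratio of 0.92 (-0.53 to 2.57), was not so without the 5 cells. In the granin and prohormone enzyme list 2 of 3, *scg3* and *cpe*, were higher as well. Few members of the other lists moved at least 2-fold. In the Notch list *her4.1* and *numbl* were lower, of 13. In the pituicyte list 1 of 11 moved, *nkx2.4a*, lower in *gnrh3*-/- cells. In the radial glia and astroglia list *fabp7a*, *her4.1* and *ptn* were lower and *s100b* higher, of 14. In the placode and stem factor list 0 of 8 and in the mural cell and fibroblast list 0 of 9 moved that far. Over all genes 3.42% were higher and 4.73% lower, so counts of 0 or 1 in lists this short do not set those lists apart. *fabp7a* had 220 UMIs in *gnrh3*-/- and 342 in WT her6+ cells. In the other cells it was lower in the *gnrh3*-/- library as well, with 64 UMIs in *gnrh3*-/- and 295 in WT cells.

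**Figure D5:**
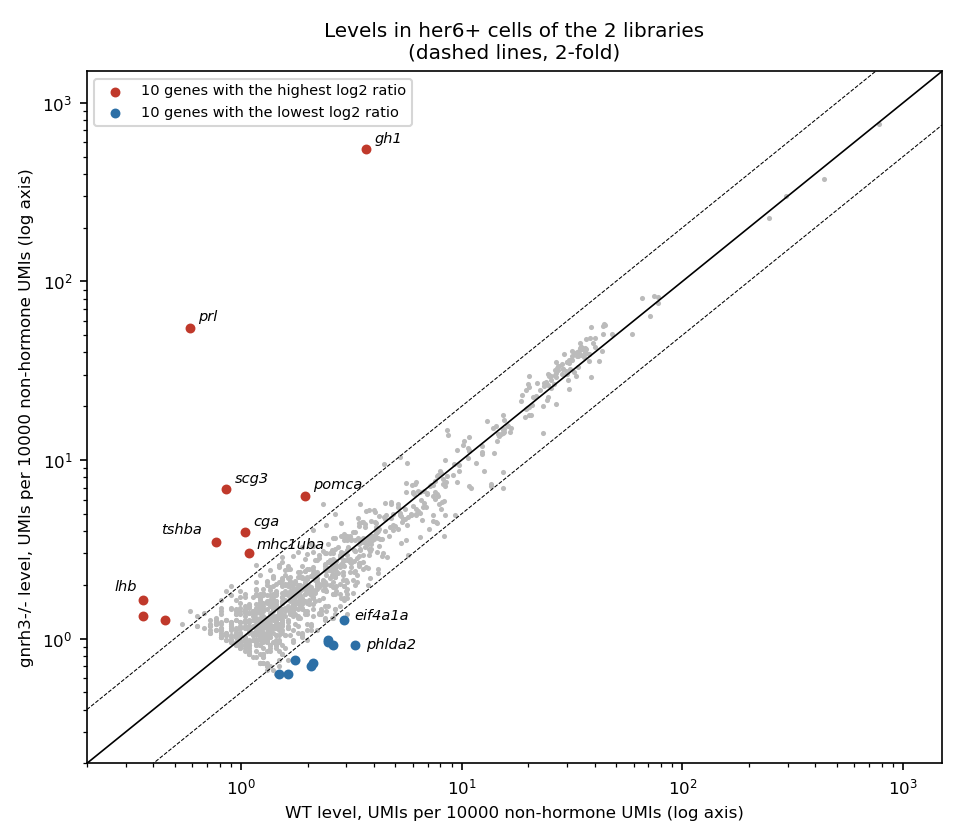
Levels of 1134 genes with at least 50 UMIs (points) in *gnrh3*-/- her6+ cells (y axis) and WT her6+ cells (x axis), both in UMIs per 10000 non-hormone UMIs on log axes, with equality as a solid line and 2-fold as dashed lines. The red points are the 10 highest log2 ratios, with *gh1* and *prl* farthest from the line, and the blue points the 10 lowest.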

How the data were processed

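The authors counted UMIs per protein-coding gene with Cell Ranger 6.0.2 on GRCz11 and deposited the counts without normalization, for all barcodes and for the cells that passed their limits on UMIs, genes and mitochondrial share, with the Seurat 4 annotation. The 2 deposited matrices differed in 0 entries of these cells. Members, lists and alternatives were chosen with earlier results of these data known. A type of the annotation and the gene that names it are left out of the values given.

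Levels left 12 hormone genes out of the total, so that 3 counts are a level of 0.0951 in *gnrh3*-/- and 0.135 in WT her6+ cells. Ratios of 2 sums have exact binomial intervals, shares Clopper-Pearson intervals and levels Poisson intervals at 95%. Named genes are the 5 markers, the 30 highest and 10 lowest ratios over the other cells, up to 4 members of each list with markers at 0, and the 10 highest and 10 lowest genotype ratios. More list members were named after their values were seen. The minimum for lower genes, 20 UMIs expected in her6+ cells, was set after seeing the data. Rows that share a symbol were kept apart by gene ID. Doublets were kept and called with Scrublet in scanpy 1.11.5 (expected rate 0.05), and TMM used edgeR 4.0.16. Ratios were tested on simulated data. Sequences were not used here.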

Additional observations from a re-analysis of the deposited data

How the results depend on the processing

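Each genotype has 1 library of pooled pituitaries, so no spread between animals is known, leaving out a replicate was not possible, and intervals cover counting error only. No paired analysis was possible because each group has a single library. The 463 genes at least 4-fold higher in her6+ cells became 416 with TMM scaling and 585 with hormone genes in the total, 262 with a minimum of 50 UMIs and 744 at 2-fold, and 416 of the 463 were called under TMM. The 342 genes at least 4-fold lower became 227 with hormone genes in the total, which moved the median log2 ratio of all genes to 0.75 (*gnrh3*-/-) and 0.83 (WT), against 0.05 and 0.06 with TMM, and 35 where 20 UMIs had to be observed in her6+ cells. The 94 genes at least 2-fold higher in *gnrh3*-/- her6+ cells became 191 as a mean of per-cell levels. Of 960 log2 ratios over the other cells under alternatives, 958 kept their sign. Against the highest of the other types, *her6* was at -1.22 and *six3b* at -0.24 in the WT library. Of 200 genotype ratios under alternatives 1 turned, *tshba* (-0.052) with free RNA subtracted. Thinned to 1000 UMIs, shares in *gnrh3*-/- cells were 43.8% for *her6*, 18.8% for *sox2* and 53.1% for *tac3b*, and 48.6% for *tac3b* in WT cells. Without thinning, *sox2* was at 57.8% in *gnrh3*-/- and 62.2% in WT cells and *cyp26b1* at 100% in WT cells. Over genes with at least 20 UMIs, the mean r with other types ran from 0.47 to 0.58 in place of 0.61 to 0.75, and with a pseudocount of 1 the lowest was 0.68. The alternative without the 5 cells of high hormone share, and all alternatives of the lower count, were chosen after seeing the data. Depth limits genes under about 20 UMIs, where single cells can set a ratio.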
